A study of Mus musculus with 4 samples.

Results

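The expression of 31 genes linked to the transcription factor ATF4 was followed through wild-type mouse embryonic fibroblasts (MEFs) and MEFs labelled as NFAT5/TonEBP knockout, in hypertonic and isotonic medium. They were listed by function: ATF4 and its partner factors, stress effectors, enzymes that make serine, proline and other amino acids, mitochondrial one-carbon enzymes, amino acid transporters and a tRNA exporter. Of the 31 genes, 30 were read by a probe set annotated to that gene alone, out of 19938 genes so read on the array. Pycr1, a proline synthesis gene, had no such probe set. Each of the 30 had exactly 1 probe set, and all 30 had a mean signal over the 4 arrays above the dim limit of 5.39, the median of all genes' means.

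The series held 4 groups with 1 array each: knockout-labelled cells in hypertonic medium, knockout-labelled cells in isotonic medium, wild-type cells in hypertonic medium and wild-type cells in isotonic medium. Cells that had not been synchronised stayed 20 hours in their medium, and the hypertonic medium was brought to 450 mosmol/kg with NaCl. Each array was hybridised with a pool of 4 samples, so the spread among those samples was not seen, and no test, standard error or replicate check could be made on any difference. The labels do not say how the knockout was made, what the isotonic osmolality was, or how many embryos or clones the cells came from. All values are signals or differences of signals in log2 units, where a 2-fold difference is 1, and counts were taken at that limit.

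ATF4 is a basic leucine zipper factor whose protein is made when kinases such as GCN2, PERK, PKR and HRI phosphorylate the translation factor eIF2. General translation then slows while the Atf4 mRNA, which carries short upstream reading frames, is translated more, so its mRNA level is not a measure of its protein. The protein pairs with C/EBP family members on composite elements of target genes, which take up and make amino acids, charge tRNAs and feed back on the pathway. In hypertonic medium NFAT5 switches on genes for organic osmolytes, and cells also gather neutral amino acids as osmolytes.

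The arrays had medians of 4.87 to 4.91 over all probe sets and correlated pairwise at 0.979 to 0.989. Nfat5 itself, the targeted gene, read 8.24 and 8.03 in knockout-labelled hypertonic and isotonic cells, against 8.19 and 7.74 in wild-type hypertonic and isotonic cells. It was thus not lower under the knockout label. The position of the probes relative to the deleted part is not given, so this reading does not check the label and the cells are called knockout-labelled throughout. Of 10 fibroblast markers 8 were above the dim limit on every array, while Dcn and Lum were below it on every array. The log2 of their summed signal was 13.62 and 14.07 in knockout-labelled hypertonic and isotonic cells, against 14.32 and 14.25 in wild-type hypertonic and isotonic cells. Of 5 epithelial markers 3 were above the limit on each array, or 4 in wild-type isotonic cells, with summed signals of 8.47 and 8.33 in knockout-labelled hypertonic and isotonic cells, against 8.29 and 8.41 in wild-type hypertonic and isotonic cells. The neural marker Tubb3 read 5.86 and 5.42 in knockout-labelled hypertonic and isotonic cells, against 6.93 and 7.51 in wild-type hypertonic and isotonic cells. Their part in the results below was not tested. No endothelial or skeletal muscle marker was above the limit on any array. Of 4 macrophage and leukocyte markers, Cd68 read 5.46 and 5.62 in knockout-labelled hypertonic and isotonic cells, against 5.31 and 5.56 in wild-type hypertonic and isotonic cells, near the dim limit on every array, while Ptprc, Adgre1 and Csf1r were below it on every array. Xist, transcribed from the silenced X chromosome of female cells, read 3.16 and 3.75 in knockout-labelled hypertonic and isotonic cells, against 9.31 and 8.99 in wild-type hypertonic and isotonic cells, so differences between the genotypes cannot be told apart from differences between the cell isolates.

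The first question was how the ATF4-linked genes read after 20 hours in hypertonic medium. Most were lower in hypertonic than in isotonic medium in both genotypes, by modest amounts. In knockout-labelled cells 24 of the 30 were below 0, with a median difference of -0.36, while 61.1% of 9969 genes above the dim limit were below 0 and their median was -0.09. In wild-type cells 27 of the 30 were below 0, with a median of -0.42, while 54.2% of all genes were below 0 and their median was -0.03. After quantile and after cyclic loess normalization 20 of the 30 were below 0 in knockout-labelled cells, beside 49% and 52.7% of all genes, and 27 and 26 in wild-type cells, beside 50.3% and 48.2%. The 2 responses share no array, and as deposited 23 genes (76.7%) were below 0 in both, against 33.5% of all genes. Few differences were large: 1 of the 30 was 2-fold lower in knockout-labelled cells, beside 2.97% of all genes, and 2 of the 30 were 2-fold lower in wild-type cells, beside 0.401%. None was 2-fold higher in either, beside 0.221% in knockout-labelled and 0.802% in wild-type cells. At 1.5-fold, 7 were lower in each genotype, beside 11.9% of all genes in knockout-labelled and 3.17% in wild-type cells. At the same limit 0 were higher in knockout-labelled and 1, Nupr1, in wild-type cells, beside 3.5% and 3.67% of all genes. Of the 30 genes 7 make 23.3%, a share nearer to that of all genes in knockout-labelled than in wild-type cells. Because the genes were listed with earlier results of these data known, the counts describe these arrays.

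**Figure D1:**
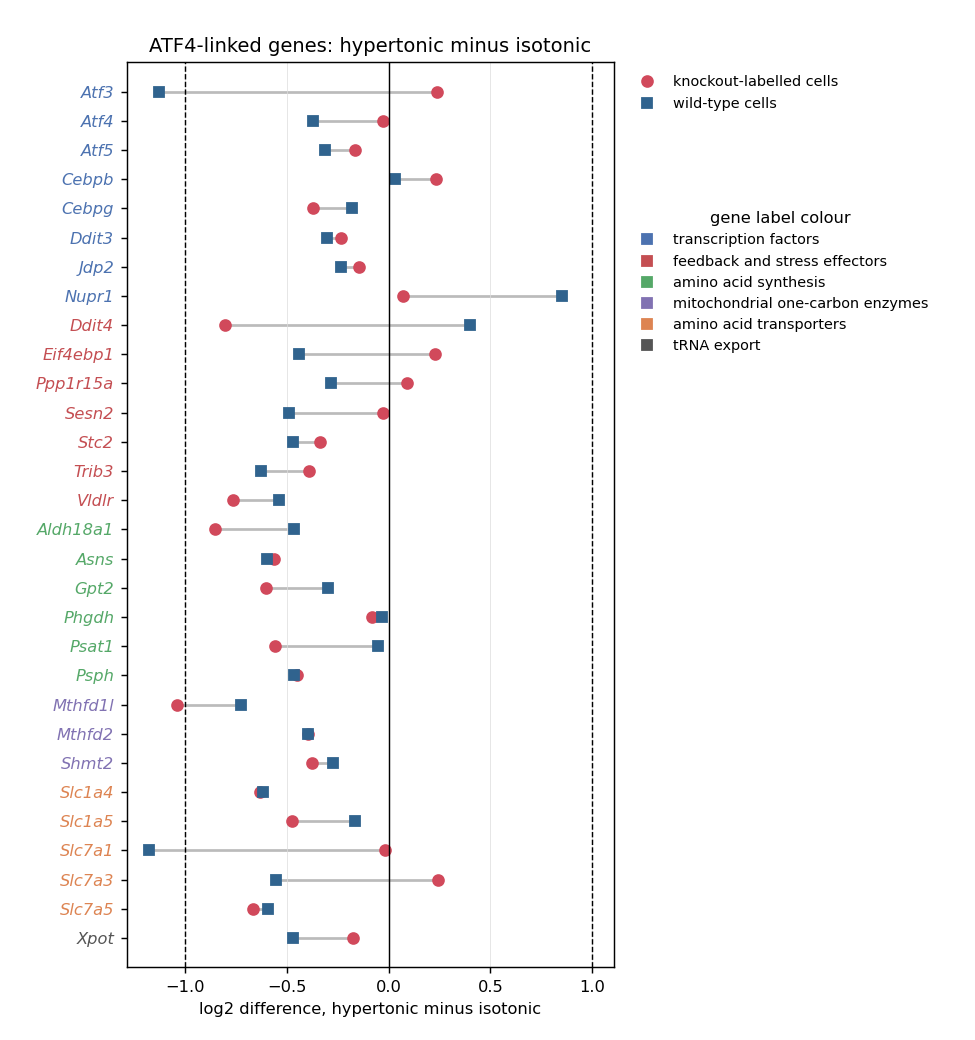
Log2 difference of each ATF4-linked gene, hypertonic minus isotonic, in knockout-labelled cells (circles) and wild-type cells (squares), 1 array per group, with dashed lines at 2-fold. Most points lie left of 0, and Atf3, Ddit4 and Slc7a1 have the widest gaps between genotypes.

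**Figure D2:**
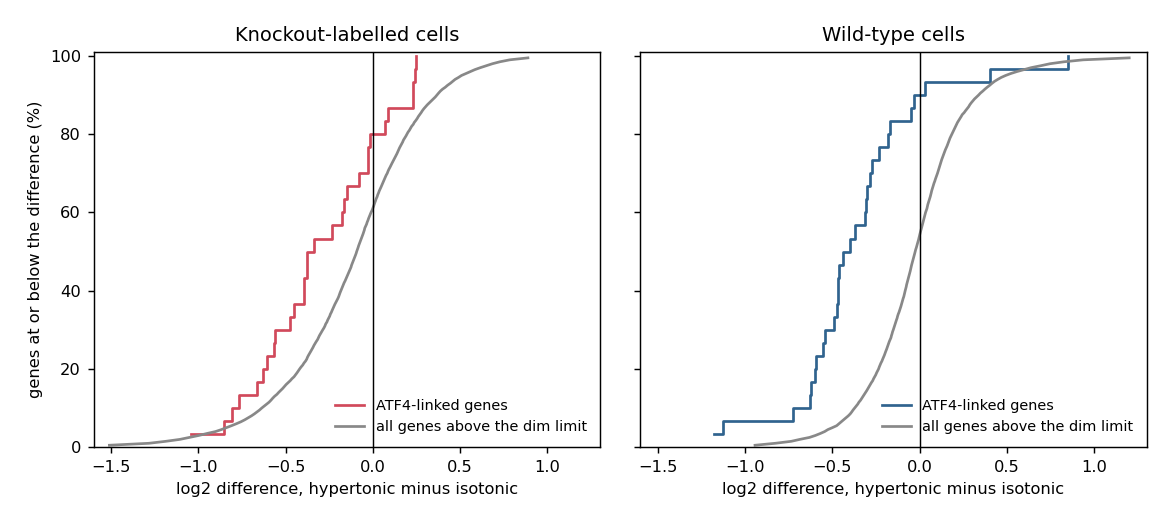
Share of genes at or below each log2 difference, hypertonic minus isotonic, for the 30 ATF4-linked genes (steps) and all 9969 genes above the dim limit (grey curve), in knockout-labelled cells on the left and wild-type cells on the right. The steps lie left of the grey curve over most of their course, with medians of -0.36 and -0.42.

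The disagreement between paired probe sets of a gene gave a scale for measurement error within an array. Over 434 genes with 2 probe sets above the dim limit, its SD per probe set was 0.18 for the knockout-labelled response and 0.15 for the wild-type response. Of the 30 genes, 9 differed by less than this in knockout-labelled cells and 3 in wild-type cells, beside 37.7% and 45.2% of all genes. This spread leaves out the variation between cultures and any error that all probe sets of an array share.

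Among the transcription factors the responses were small in knockout-labelled cells and mixed in wild-type cells. Atf4 read 8.73 in knockout-labelled hypertonic cells, against 8.76 in knockout-labelled isotonic cells, and 8.78 in wild-type hypertonic cells, against 9.15 in wild-type isotonic cells. The wild-type isotonic array thus stood above the other three, which lay close together. The differences were -0.03 in knockout-labelled and -0.37 in wild-type cells. Atf3, a factor induced early by many stresses and a target of ATF4, read 6.64 against 6.40 in knockout-labelled hypertonic and isotonic cells, and 5.70 against 6.83 in wild-type hypertonic and isotonic cells. It was lowest in wild-type hypertonic cells, 2.19-fold below wild-type isotonic cells (-1.13), whereas the knockout-labelled difference was 0.24. Of the 9969 genes above the dim limit, 21 had a lower wild-type difference. Nupr1, a small chromatin protein induced by stress, went the other way: it read 8.82 against 8.75 in knockout-labelled hypertonic and isotonic cells, and 9.28 against 8.43 in wild-type hypertonic and isotonic cells. Its wild-type difference of 0.85, or 1.8-fold, was the highest of the 30, and 138 of the 9969 genes had a higher one.

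The remaining factors differed by less than 1.5-fold in either genotype. Ddit3, which encodes the stress factor CHOP, differed by -0.23 in knockout-labelled and -0.31 in wild-type cells. Atf5, whose mRNA is translated under eIF2 phosphorylation like that of Atf4, differed by -0.16 and -0.32 in the same order of genotypes. Cebpg, a dimer partner of ATF4, differed by -0.38 in knockout-labelled and -0.18 in wild-type cells. Jdp2, a repressor related to AP-1 factors, differed by -0.15 and -0.23, and Cebpb, another C/EBP factor, by 0.23 and 0.03, again with knockout-labelled cells given before wild-type cells. Of the 8 factors, 5 were below 0 in knockout-labelled and 6 in wild-type cells, with medians of -0.09 and -0.27; over all genes 61.1% and 54.2% were below 0, with medians of -0.09 and -0.03, so the factors stood close to all genes in knockout-labelled cells.

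The composite element bound by ATF4 with C/EBP partners was looked for in the promoters, to show which of the genes carry its letters near their start. The RefSeq table for build GRCm38.p6 held a promoter for 26 of the 30 genes, and the 250 bases before each start were searched on both strands for TGATGNAA, the core of the element. It was found for 5 of the 26 genes (19.2%): Atf3, Asns, Nupr1, Jdp2 and Vldlr. Of 15614 genes read on the array with a promoter in the table, 491 (3.14%) held it, as did 3.45% of all 32851 promoters listed. The cyclic AMP response element TGACGTCA was found for 1 of the 26 genes (3.85%), Ppp1r15a, at 12 to 5 bases before its start, and in 2.33% of the genes read, and neither motif overlapped the other in these genes. The element of the asparagine synthetase gene lay 23 to 16 bases before the start, that of Jdp2 33 to 26 bases before a start, those of Atf3 and Nupr1 110 to 103 bases before theirs, and that of Vldlr 200 to 193 bases before a start. Stretches around 3 of these elements are shown so that their letters can be compared, with the element in capitals, 5′ to 3′ on the strand of the gene; Asns lies on the minus strand at chr6:7693210-7693248, Jdp2 on the plus strand at chr12:85599367-85599406 and Vldlr on the plus strand at chr19:27216804-27216843.
Asns: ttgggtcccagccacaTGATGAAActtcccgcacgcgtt
Jdp2: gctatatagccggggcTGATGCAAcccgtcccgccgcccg
Vldlr: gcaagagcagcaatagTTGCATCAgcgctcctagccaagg
In Vldlr the letters stand in the reverse complement, TTGCATCA. The 5 genes with the element did not share a response. In knockout-labelled cells they differed by 0.24 (Atf3), -0.57 (Asns), 0.07 (Nupr1), -0.15 (Jdp2) and -0.77 (Vldlr), and in wild-type cells by -1.13 (Atf3), -0.60 (Asns), 0.85 (Nupr1), -0.23 (Jdp2) and -0.54 (Vldlr). A match is a description of the letters in this window, not of a bound site.

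Whole promoters are given for the genes with the outermost responses, taken as those past 2-fold in either genotype and the 2 lowest and 2 highest means of both responses. Each line holds the 250 bases before the annotated start, 5′ to 3′ on the strand of the gene, with any TGATGNAA match on either strand in capitals. Slc7a1 lies on the minus strand at chr5:148399905-148400154 (the first listed of 2 promoters), Atf3 on the minus strand at chr1:191183334-191183583, Mthfd1l on the plus strand at chr10:3972825-3973074, Aldh18a1 on the minus strand at chr19:40588464-40588713, Nupr1 on the minus strand at chr7:126625471-126625720 and Cebpb on the plus strand at chr2:167688665-167688914.
Slc7a1: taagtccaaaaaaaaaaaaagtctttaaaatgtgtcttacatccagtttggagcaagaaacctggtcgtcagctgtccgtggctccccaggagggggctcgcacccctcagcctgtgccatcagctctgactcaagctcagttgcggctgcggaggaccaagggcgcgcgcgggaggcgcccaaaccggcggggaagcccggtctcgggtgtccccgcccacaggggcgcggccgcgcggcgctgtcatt
Atf3: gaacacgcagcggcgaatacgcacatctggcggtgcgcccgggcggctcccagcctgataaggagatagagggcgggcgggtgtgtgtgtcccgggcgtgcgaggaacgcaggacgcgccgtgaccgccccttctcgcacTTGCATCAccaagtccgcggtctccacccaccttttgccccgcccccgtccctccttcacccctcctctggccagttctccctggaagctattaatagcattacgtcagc
Mthfd1l: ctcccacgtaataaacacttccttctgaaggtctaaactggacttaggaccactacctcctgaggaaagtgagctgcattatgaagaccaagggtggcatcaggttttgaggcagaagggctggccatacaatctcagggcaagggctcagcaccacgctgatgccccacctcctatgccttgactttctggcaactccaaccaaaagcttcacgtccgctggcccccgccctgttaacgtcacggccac
Aldh18a1: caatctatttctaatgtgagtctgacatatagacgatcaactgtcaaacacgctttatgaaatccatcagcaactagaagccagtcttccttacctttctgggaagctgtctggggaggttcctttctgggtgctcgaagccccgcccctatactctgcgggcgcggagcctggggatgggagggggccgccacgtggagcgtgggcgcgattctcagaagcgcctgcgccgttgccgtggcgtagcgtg
Nupr1: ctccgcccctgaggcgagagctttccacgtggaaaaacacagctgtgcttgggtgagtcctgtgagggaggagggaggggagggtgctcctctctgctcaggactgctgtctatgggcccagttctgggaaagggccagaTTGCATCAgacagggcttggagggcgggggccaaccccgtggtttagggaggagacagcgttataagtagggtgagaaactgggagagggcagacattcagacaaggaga
Cebpb: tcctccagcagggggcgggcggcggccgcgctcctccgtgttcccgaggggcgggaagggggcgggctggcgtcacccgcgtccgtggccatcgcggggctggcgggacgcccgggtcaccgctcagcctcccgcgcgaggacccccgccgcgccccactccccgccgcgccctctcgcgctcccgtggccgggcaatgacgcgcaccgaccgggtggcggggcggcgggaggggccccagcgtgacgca
Atf3 and Nupr1 hold the same 8 letters at the same distance from the start. Their hypertonic minus isotonic differences were 0.24 (Atf3) and 0.07 (Nupr1) in knockout-labelled cells, and -1.13 and 0.85 in wild-type cells. Whether the letters bear on these differences was not tested. Slc7a1, Mthfd1l, Aldh18a1 and Cebpb have no match in this window.

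Most enzymes of amino acid synthesis read lower in hypertonic medium, with medians over the 6 read of -0.56 in knockout-labelled and -0.38 in wild-type cells, against -0.09 and -0.03 over all genes. Asns, which makes asparagine and is a long-studied ATF4 target, read 10.12 against 10.69 in knockout-labelled hypertonic and isotonic cells, and 10.11 against 10.70 in wild-type hypertonic and isotonic cells. The hypertonic arrays of both genotypes were alike and below both isotonic arrays, with differences of -0.57 and -0.60 in knockout-labelled and wild-type cells. Psph, the last enzyme of serine synthesis, showed the same layout: it read 6.80 against 7.25 in knockout-labelled hypertonic and isotonic cells, and 6.78 against 7.25 in wild-type hypertonic and isotonic cells. The earlier enzymes of that pathway did not share it. Phgdh, the first enzyme, differed by -0.08 in knockout-labelled and -0.03 in wild-type cells, both within the spread between probe sets, and after cyclic loess normalization by 0.0091 and 0.0068, on the other side of 0. Psat1, the aminotransferase between them, read 10.16 against 10.71 in knockout-labelled hypertonic and isotonic cells, and 11.00 against 11.05 in wild-type hypertonic and isotonic cells. Its difference was thus -0.56 in knockout-labelled cells and within the probe-set spread in wild-type cells.

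Aldh18a1 starts proline synthesis from glutamate. It read 8.70 against 9.55 in knockout-labelled hypertonic and isotonic cells, and 9.39 against 9.86 in wild-type hypertonic and isotonic cells, so the knockout-labelled hypertonic array was the low one. The differences were -0.85 and -0.46 in knockout-labelled and wild-type cells. Gpt2, the mitochondrial alanine aminotransferase, differed by -0.60 in knockout-labelled and -0.30 in wild-type cells.

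All 3 mitochondrial one-carbon enzymes were lower in hypertonic medium in both genotypes, as were 33.5% of all genes. Mthfd1l, which releases formate from mitochondrial folate, had the lowest knockout-labelled response of the 30 genes. It read 7.67 against 8.71 in knockout-labelled hypertonic and isotonic cells, a 2.06-fold difference (-1.04), and 7.99 against 8.71 in wild-type hypertonic and isotonic cells (-0.73). The isotonic arrays read the same and both hypertonic arrays lay below them. In knockout-labelled cells 256 of 9969 genes had a lower difference, and in wild-type cells 158 did. The knockout-labelled value came to -0.95 after quantile normalization and after cyclic loess normalization, short of 2-fold. Mthfd2, the folate dehydrogenase of the same route, differed by -0.40 in knockout-labelled and -0.40 in wild-type cells. Shmt2, which passes a carbon from serine to folate, differed by -0.38 and -0.27.

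The transporters split into those with alike responses and those without. Slc7a5, the light chain of the leucine transporter LAT1, read 9.60 against 10.27 in knockout-labelled hypertonic and isotonic cells, and 10.01 against 10.61 in wild-type hypertonic and isotonic cells. Its differences were -0.67 and -0.59 in knockout-labelled and wild-type cells. Slc1a4, a transporter of alanine and serine, differed by -0.63 in knockout-labelled and -0.62 in wild-type cells. Slc7a5, Slc1a4 and Mthfd1l were the 3 genes at least 1.5-fold lower in both genotypes, a pattern of 10% of the list and of 0.572% of all genes. Slc1a5, the glutamine transporter, differed by -0.47 in knockout-labelled and -0.17 in wild-type cells.

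Slc7a1, the widely expressed arginine and lysine transporter CAT1, had the lowest wild-type response of the 30. It read 7.88 against 7.89 in knockout-labelled hypertonic and isotonic cells, and 7.08 against 8.26 in wild-type hypertonic and isotonic cells. The wild-type hypertonic array was lowest, 2.27-fold below wild-type isotonic cells (-1.18), and 18 of 9969 genes had a lower wild-type difference. The knockout-labelled difference was -0.02, within the spread between probe sets. Slc7a3, a related cationic amino acid transporter, read 5.60 against 5.35 in knockout-labelled hypertonic and isotonic cells, and 6.30 against 6.86 in wild-type hypertonic and isotonic cells. The knockout-labelled isotonic reading lay just under the dim limit, so that difference, 0.24, is poorly determined.

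Of the 7 stress effectors and feedback genes, 5 were below 0 in knockout-labelled and 6 in wild-type cells, beside 61.1% and 54.2% of all genes, with medians of -0.34 and -0.47. Trib3, a pseudokinase that restrains ATF4 and AKT, read 7.41 against 7.80 in knockout-labelled hypertonic and isotonic cells, and 7.35 against 7.98 in wild-type hypertonic and isotonic cells, with differences of -0.39 and -0.63. Sesn2, a leucine sensor that restrains mTORC1, read 6.97 against 6.998 in knockout-labelled hypertonic and isotonic cells, and 6.24 against 6.73 in wild-type hypertonic and isotonic cells. Its knockout-labelled arrays were alike and its wild-type hypertonic array was the lowest. Ddit4, which encodes the mTORC1 inhibitor REDD1, had responses of opposite sign: it read 7.61 against 8.42 in knockout-labelled hypertonic and isotonic cells, and 8.22 against 7.82 in wild-type hypertonic and isotonic cells. Its differences were -0.81 in knockout-labelled cells, 1.75-fold lower, and 0.40 in wild-type cells, 1.32-fold higher.

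Eif4ebp1, which encodes a repressor of cap-dependent translation, read 9.64 against 9.41 in knockout-labelled hypertonic and isotonic cells, and 9.04 against 9.48 in wild-type hypertonic and isotonic cells. The signs of its differences were opposite too, 0.23 and -0.44. Ppp1r15a, which encodes the GADD34 subunit that dephosphorylates eIF2, differed by 0.09 in knockout-labelled and -0.29 in wild-type cells. Vldlr, the very low density lipoprotein receptor, read 5.70 against 6.47 in knockout-labelled hypertonic and isotonic cells, and 6.87 against 7.41 in wild-type hypertonic and isotonic cells. It was lower in hypertonic medium in both genotypes, with differences of -0.77 and -0.54. Stc2, a secreted glycoprotein, differed by -0.34 and -0.47, and its knockout-labelled hypertonic reading of 5.11 was below the dim limit. Xpot, the exporter of tRNAs from the nucleus, differed by -0.17 in knockout-labelled and -0.47 in wild-type cells.

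**Figure D3:**
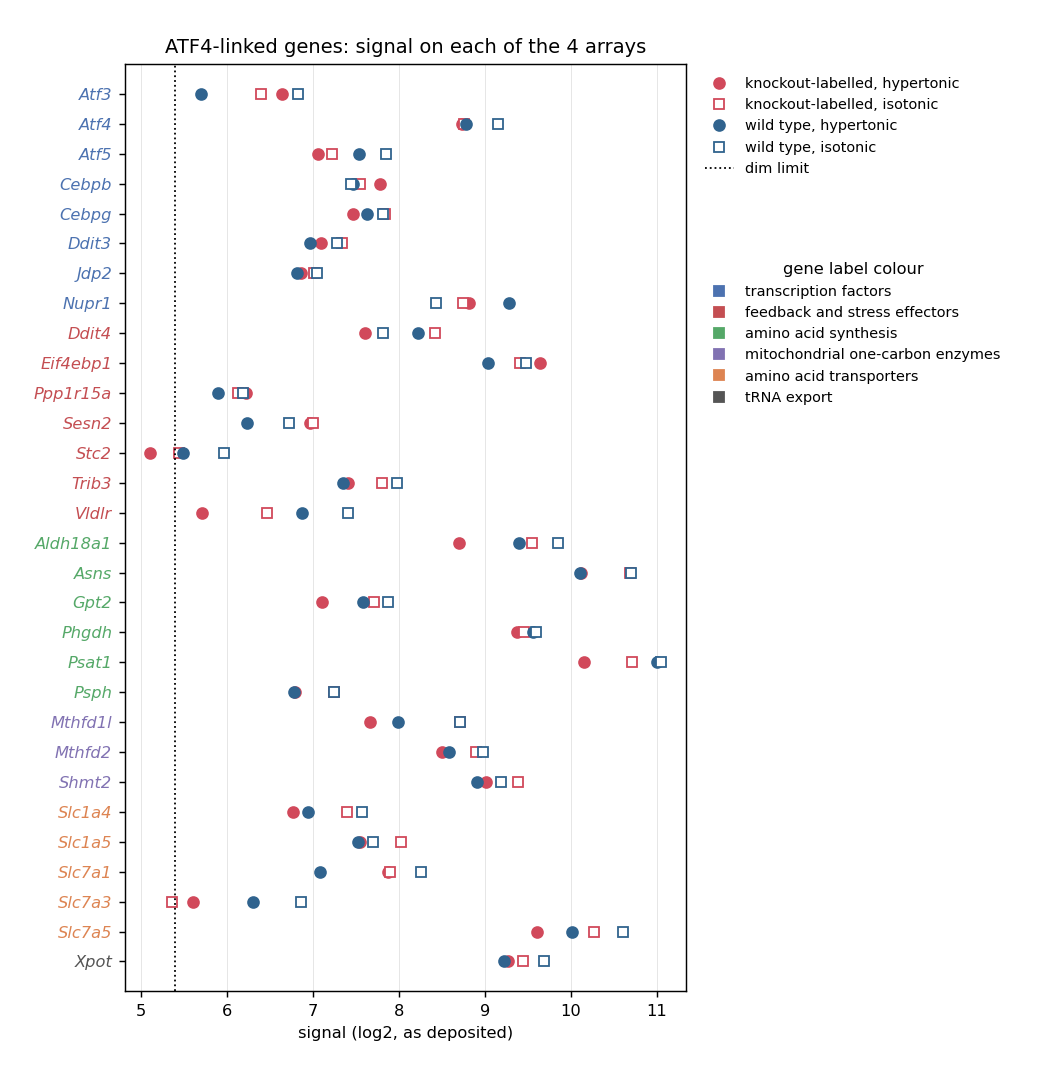
Signal of each ATF4-linked gene on the 4 arrays on the log2 scale as deposited, with filled circles for hypertonic and open squares for isotonic medium, red for knockout-labelled and blue for wild-type cells, and the dim limit as a dotted line. Signals of different genes come from different probes and are compared within a row only. The wild-type isotonic array is the highest of the 4 for 19 of the 30 genes, a count not made over all genes.

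Across the 30 genes the highest signal was on the wild-type isotonic array for 19, the knockout-labelled isotonic array for 7, the knockout-labelled hypertonic array for 3 and the wild-type hypertonic array for 1. The lowest was on the knockout-labelled hypertonic array for 14 and the wild-type hypertonic array for 13. The same order was not counted over all genes, so these counts do not set the list apart from them.

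The next comparison set the responses of the genotypes against each other, subtracting the wild-type response of each gene from its knockout-labelled response. For 13 of the 30 genes it was smaller than the spread between probe sets of 0.21, beside 37.7% of all genes. Asns (0.03), Psph (0.01), Mthfd2 (0.00) and Slc1a4 (-0.01) were among the closest to 0. Of the 30 genes 2 were 2-fold positive, beside 1.23% of all genes, and 1 was 2-fold negative, beside 5.31%. The positive ones were Atf3 (1.37) and Slc7a1 (1.16), and the negative one was Ddit4 (-1.21). Slc7a3 (0.80), Eif4ebp1 (0.67) and Sesn2 (0.46) followed on the positive side, and Nupr1 (-0.78) and Psat1 (-0.51) on the negative side. At 1.5-fold 4 were positive and 2 negative, beside 6.99% and 15.1% of all genes. The median over the 30 was 0.02, against -0.06 over all genes. Gene by gene the responses of the genotypes hardly tracked each other: Pearson's r was 0.03 over the 30 genes and -0.03 over all 9969, as a description across genes, which are not replicates. Which knockout-labelled array is hypertonic is known from its label alone. With those arrays exchanged their response changes sign by arithmetic, to a median of 0.36, so the exchange is no check of the label.

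**Figure D4:**
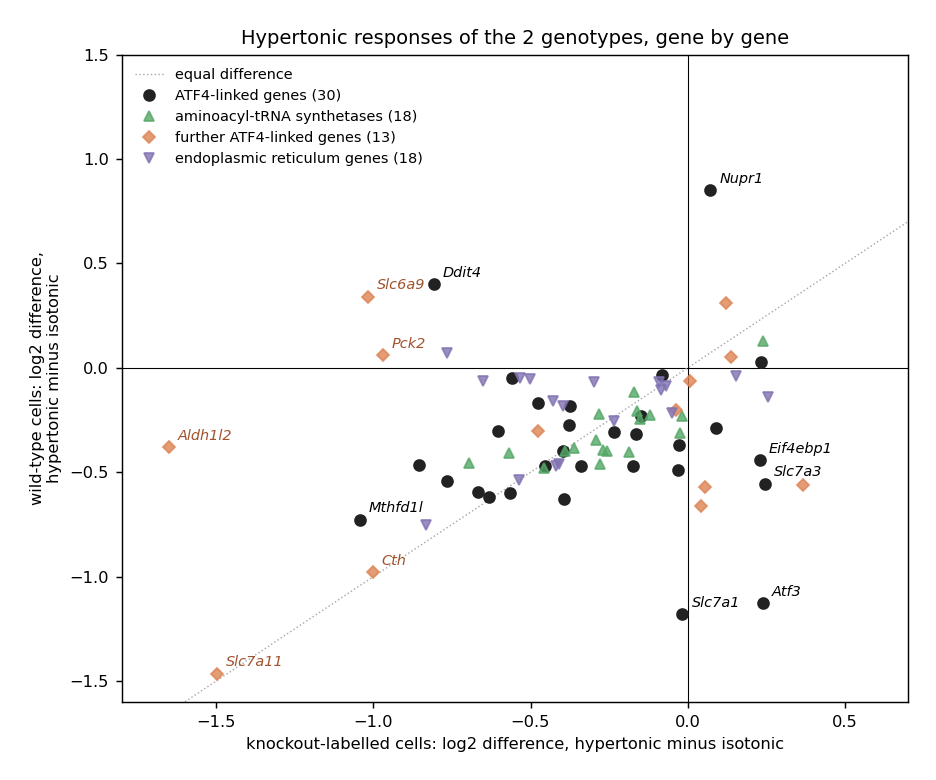
Log2 difference, hypertonic minus isotonic, in knockout-labelled cells (horizontal) and wild-type cells (vertical) for the 30 ATF4-linked genes and for 3 further gene lists, genes above the dim limit only. Most points lie in the lower left part, Slc7a11 and Cth near the line of equal difference and Atf3 and Slc7a1 below it.

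Between the genotypes the list stood close to the other genes in hypertonic medium and somewhat lower in isotonic medium. In hypertonic medium the knockout-labelled minus wild-type median was -0.07 over the 30 genes, against -0.01 over all genes, and in isotonic medium it was -0.11 against 0.03. Below 0 were 16 of the 30 in hypertonic medium, beside about 51% of all genes, and 21 in isotonic medium, beside about 45%. The isotonic median was -0.15 after quantile and -0.17 after cyclic loess normalization, against -0.0045 and -0.0012 over all genes. For 14 of the 30 the isotonic difference was smaller than the spread between probe sets of 0.18, beside 48.4% of all genes. In hypertonic medium 1 gene was 2-fold lower, beside 6.05% of all genes, and none was 2-fold higher, beside 2.28%. In isotonic medium 1 was 2-fold lower, beside 1.10%, and none was 2-fold higher, beside 1.35%. These comparisons use the same arrays as the responses above and add no separate evidence on them.

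The gene 2-fold lower in hypertonic medium was Vldlr, with a difference of -1.17, or 2.25-fold, and -0.94 in isotonic medium. In isotonic medium it was Slc7a3, whose knockout-labelled reading of 5.35 lay just under the dim limit, against 6.86 in wild-type cells, so that the size of the difference (-1.50) is poorly determined; in hypertonic medium it differed by -0.70. Psat1 (-0.84 in hypertonic and -0.33 in isotonic medium), Aldh18a1 (-0.69 and -0.30) and Atf5 (-0.48 and -0.63) also read lower in knockout-labelled cells in both media. At 1.5-fold 5 genes were lower in hypertonic and 3 in isotonic medium, beside 14.6% and 3.41% of all genes. In hypertonic medium Atf3 (0.94), Slc7a1 (0.80), Sesn2 (0.73) and Eif4ebp1 (0.60) were the 4 genes at least 1.5-fold higher in knockout-labelled cells, beside 8.23% of all genes. In isotonic medium Atf3 and Slc7a1 read lower there instead, at -0.43 and -0.37, and Ddit4 was the 1 gene at least 1.5-fold higher (0.60), beside 4.53%. Ddit4 differed by -0.61 in hypertonic medium, so the genotypes stood in the opposite order there. Atf4 differed by -0.05 in hypertonic and -0.40 in isotonic medium.

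**Figure D5:**
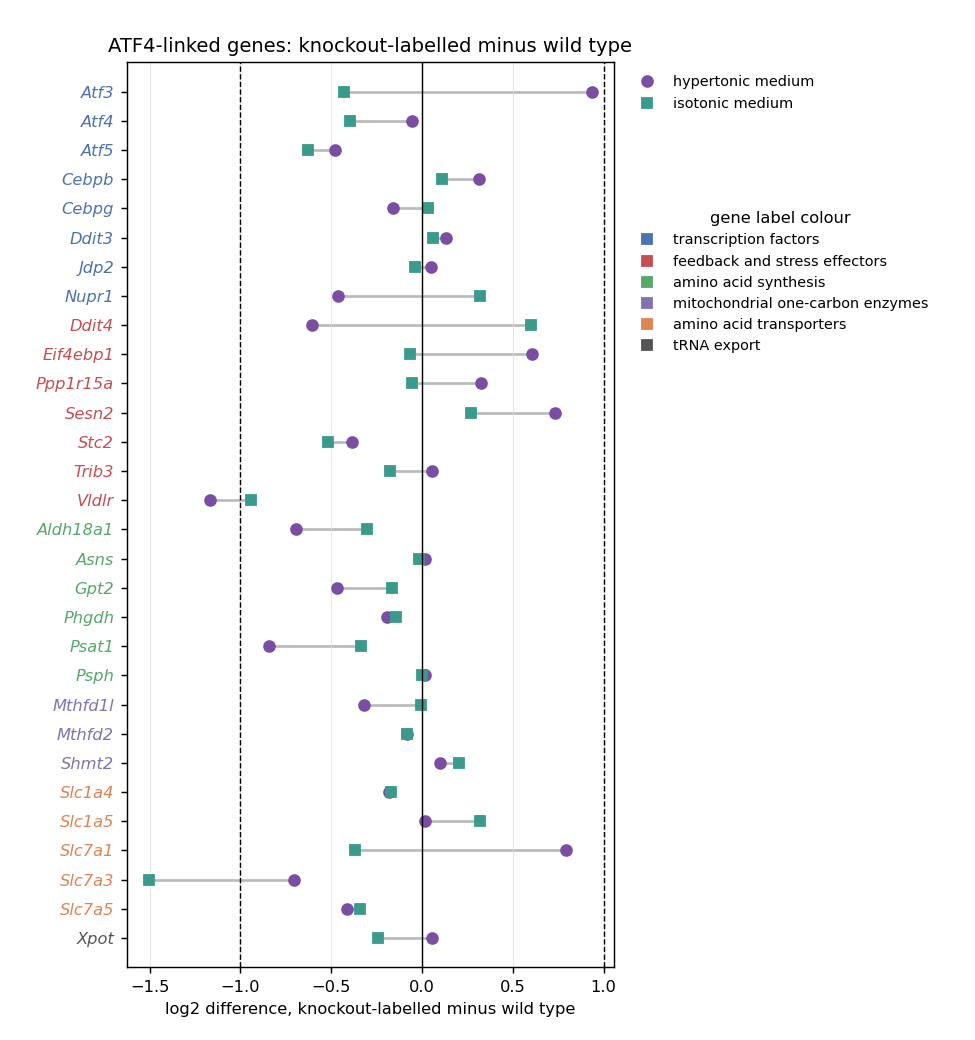
Log2 difference of each ATF4-linked gene, knockout-labelled minus wild type, in hypertonic medium (circles) and isotonic medium (squares), 1 array per group, with dashed lines at 2-fold. Vldlr passes the left line in hypertonic medium and Slc7a3 in isotonic medium, while Asns, Psph and Mthfd2 lie near 0 in both.

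Other genes of the pathway were listed separately. Of 20 cytosolic aminoacyl-tRNA synthetases, enzymes that load amino acids onto tRNAs, 18 were read and 17 of them were below 0 in each genotype, beside 61.1% of all genes in knockout-labelled and 54.2% in wild-type cells. Their medians were -0.26 in knockout-labelled and -0.36 in wild-type cells, and none differed 2-fold in any comparison. The exception was Qars, for glutamine, at 0.24 and 0.13 in knockout-labelled and wild-type cells. Next highest were Farsa, for phenylalanine, in knockout-labelled cells (-0.02) and Kars, for lysine, in wild-type cells (-0.11). The lowest were Farsb (-0.70) and Lars (-0.57) in knockout-labelled cells and Yars (-0.48) and Vars (-0.46) in wild-type cells. The differences were small but close together, all between -0.70 and 0.24 in knockout-labelled and between -0.48 and 0.13 in wild-type cells.

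Of 14 genes for the eIF2 kinases, eIF2 and its exchange factor eIF2B, 13 were read, with medians of -0.09 in knockout-labelled and -0.15 in wild-type cells. Eif2b3, an eIF2B subunit, was the 1 past 2-fold, in knockout-labelled cells only, where 2.97% of all genes were 2-fold lower. It differed by -1.08 in knockout-labelled cells, near the limit, and by -0.71 in wild-type cells. Eif2s3x, for an eIF2 subunit, followed in knockout-labelled cells (-0.57) and Eif2s2, for another, in wild-type cells (-0.32). Eif2b2, also an eIF2B subunit, was above 0 in both, at 0.28 and 0.30. Eif2ak3, encoding PERK, differed by 0.31 and Eif2ak2, encoding the interferon-induced kinase PKR, by -0.09 in knockout-labelled cells, while in wild-type cells they differed by -0.00 and 0.48. Eif2ak4, encoding the amino acid sensor GCN2, differed by -0.15 and -0.15 in knockout-labelled and wild-type cells.

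Of 17 further genes known as ATF4 targets or linked to it, 13 were above the dim limit. Slc7a11, the cystine importer, read 4.79 against 6.29 in knockout-labelled hypertonic and isotonic cells, and 4.897 against 6.36 in wild-type hypertonic and isotonic cells. Both hypertonic readings were below the dim limit, and the differences were alike, -1.50 and -1.46. Cth, which makes cysteine, differed by -1.002 in knockout-labelled and -0.98 in wild-type cells. Others had unlike responses in the genotypes, in both directions. Of the 13, the difference of responses was at least 1.5-fold negative for 3 and positive for 3, beside 15.1% and 6.99% of all genes. Aldh1l2, a mitochondrial folate enzyme, differed by -1.65 in knockout-labelled and -0.38 in wild-type cells, the glycine transporter gene Slc6a9 by -1.02 and 0.34, and Pck2, a mitochondrial enzyme of phosphoenolpyruvate synthesis, by -0.97 and 0.06. Aldh1l2, Slc6a9 and Pck2 were also the 3 of 13 genes of this list 2-fold lower in knockout-labelled than in wild-type cells in hypertonic medium, at -1.26, -2.18 and -1.22. Of all genes 6.05% were 2-fold lower in that comparison. Gadd45a, a growth arrest gene, was highest of the list in knockout-labelled cells (0.37), followed by the transcription regulator gene Cited2 (0.14). In wild-type cells Gadd45a differed by -0.56. With Gadd45a, the genes with a positive difference of responses were Chac1 and Slc38a1. Chac1 differed by 0.04 in knockout-labelled and -0.66 in wild-type cells, and Slc38a1 by 0.06 and -0.57. Slc38a2, the neutral amino acid transporter SNAT2 that is known to be induced by hypertonicity, differed by 0.12 in knockout-labelled and 0.31 in wild-type cells. Slc7a11 was above the dim limit on the isotonic arrays only, so it passed the limit through the medium in which it was high. Without it, 3 of 12 were 2-fold lower in knockout-labelled cells, beside 2.97% of all genes, and 0 in wild-type cells, beside 0.401%, with medians of -0.01 and -0.25. Of these 3, Cth (-1.002) and Slc6a9 (-1.02) lay just past the limit, and Aldh1l2 (-1.65) well past it. Quantile normalization moved the median of all genes in this response from -0.09 to 0.01, by more than Cth and Slc6a9 stood past the limit.

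A further list held endoplasmic reticulum genes, for chaperones, folding and the stress response of that compartment. They were also mostly below 0, 16 of 18 in knockout-labelled and 17 of 18 in wild-type cells, beside 61.1% and 54.2% of all genes. Their medians were -0.40 and -0.12, against -0.09 and -0.03 over all genes, and none passed 2-fold. Xbp1, a factor of that response, was lowest in both genotypes, at -0.83 in knockout-labelled and -0.75 in wild-type cells. Pdia4, a disulfide isomerase, differed by -0.76 and 0.07, and Hspa5, the chaperone BiP, by -0.54 and -0.54. Syvn1 and Dnajb9 were highest in knockout-labelled cells, at 0.26 and 0.15, and Pdia4 and Dnajb9 in wild-type cells, where Dnajb9 differed by -0.04. A list of 11 housekeeping genes had medians of 0.01 in knockout-labelled and -0.03 in wild-type cells.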

How the data were processed

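Values came from the authors' deposited table of log2 signals, 1 per probe set and array, for Affymetrix Mouse Gene 1.0 ST arrays hybridised with RNA amplified from a poly(T) primer, per the labels' protocols. That the unit is log2 was taken from the range of the table, 1.57 to 13.94. The submitters' processing notes name MAS5; the treatment of background and array scale is not stated in the labels. Precision is limited by the number of arrays, 1 per group.

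Of 35557 probe sets, 21789 had 1 gene symbol in the platform annotation, 1621 had several and 12147 had none; only the first kind was used. Each gene was represented by its brightest probe set, by mean signal. Genes with a mean above 5.39, the median over 19938 genes, entered the counts. A mean over all arrays does not keep out a gene that is dim in 1 group and high in another: Slc7a3 and Stc2 were below the limit on 1 array each, and Slc7a11, on another list, on both hypertonic arrays. Differences were counted at 2-fold with no test, and the counting was tested on simulated data. Every one of the 30 gene symbols matched RefSeq by Entrez identifier.

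The genes and lists were chosen with earlier results of these data known. All 31 listed genes were named, and from the other lists those past 2-fold and the 2 highest and 2 lowest in each hypertonic response, with a few more chosen after their values were seen. Of the 83 genes on these other lists, including housekeeping genes, 7 had no probe set of their own. Alternatives were quantile and cyclic loess normalization, equal array medians, other dim limits, the mean of probe sets, a 1.5-fold limit and an exchange of the knockout-labelled arrays. Tools were limma 3.58.1 under R 4.3.3, and pandas 2.3.3, numpy 2.4.6 and matplotlib 3.10.9 under Python 3.11.15.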

Additional observations from a re-analysis of the deposited data

How the results depend on the processing

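Every difference of the 30 genes stayed within the spread between probe sets of its value as deposited. That held for 150 values after quantile and 150 after cyclic loess normalization, and none past 2-fold changed sign. Some differences near 0 did: in knockout-labelled cells Atf4, Sesn2 and Slc7a1 stood above 0 after quantile and after cyclic loess normalization, Jdp2 after the first and Phgdh after the second, so that 20 were below 0 under each, against 24 as deposited. After quantile normalization the knockout-labelled medians of the transcription factors (0.02), the further ATF4-linked genes (0.03) and the eIF2 list (0.0083) were above 0 as well. Each gene has 1 probe set, so the mean of probe sets could not change its value. Equal array medians move all genes of a comparison by the same small amount. Neither setting could take a value out of the spread, so both are left out of the values above. Near the limit, Mthfd1l fell short after quantile and after cyclic loess normalization. The count of genes 2-fold lower in the knockout-labelled response was then 0, beside 1.97% and 2.44% of all genes. After quantile normalization 1 gene, Atf3 (1.04), was 2-fold higher in knockout-labelled than wild-type hypertonic cells, beside 2.72%. The dim limit was also raised to 7.57, the 75th percentile, which 17 genes passed, so fewer genes were counted. Then Mthfd1l (-1.04) was still 2-fold lower in knockout-labelled hypertonic cells, beside 1.58% of all genes above that limit. In wild-type hypertonic cells 1 gene was 2-fold lower, beside 0.241%. Between genotypes 0 were 2-fold lower in hypertonic medium, beside 3.67%, and 0 in isotonic medium, beside 0.401%. A 2-fold positive difference of responses was found for 1 gene, beside 0.702%, and Ddit4 (-1.21) stayed 2-fold negative, beside 3.25%.

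At 1.5-fold, 0 genes were higher and 7 lower in the knockout-labelled response, beside 3.5% and 11.9% of all genes. In the wild-type response 1 was higher and 7 lower, beside 3.67% and 3.17%. Between genotypes 4 were higher and 5 lower in hypertonic medium, beside 8.23% and 14.6%, and 1 higher and 3 lower in isotonic medium, beside 4.53% and 3.41%. For the difference of responses 4 were positive and 2 negative, beside 6.99% and 15.1%. With the knockout-labelled arrays exchanged, their response had a median of 0.36 with 1 gene 2-fold higher and 0 lower, beside 2.97% and 0.221% of all genes. These values follow from the change of sign alone. The genotype difference then had a median of 0.23 with 0 lower in hypertonic medium, beside 2.15%. In isotonic medium its median was -0.42 with 5 lower, beside 4.54%. The difference of responses had a median of 0.64 with 8 positive and 0 negative, beside 4.99% and 1.58%. Quantile normalization moved the share of higher genes among all genes called in the knockout-labelled response to 18%, against 6.92% as deposited, and for the difference of responses to 29.2%, against 18.9%; it moved the median of all genes in the knockout-labelled response to 0.01, against -0.09. No paired analysis was possible because each group holds 1 array. With 1 pooled array per group, a difference near the probe-set spread of 0.15 to 0.21 cannot be told from measurement error. A larger one cannot be told from variation between cultures or from error shared by an array.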
